A study of Mus musculus with 4 samples.

Results

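The PR domain genes encode transcriptional regulators that carry a PR domain, a relative of the SET domain of histone methyltransferases, and in most cases a row of zinc fingers that bind DNA. Some members methylate histones themselves, and others act by recruiting methyltransferases, deacetylases and co-repressors to their target genes. They are best known for choices of cell fate in the embryo: Prdm1 and Prdm14 in the founding of the germ line, Prdm6 in smooth muscle of blood vessels, and Prdm16 in brown fat, blood and neural stem cells and the palate. Members of the family were followed here in mouse embryos that lack nucleoredoxin (Nxn), a thioredoxin-related protein known to bind Dishevelled in Wnt signalling. The family was chosen by the measured null over wild-type ratio of Prdm16, which had been seen to be high at embryonic day 9.5 (E9.5) and not at E11.5, so that the ratios of Prdm16, and of the other members in the same contrast, are given as a description with no test.

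Total RNA came from whole C57BL/6J embryos of 2 genotypes, NRX +/+ (wild type) and NRX -/- (Nxn-null; the titles abbreviate it KD), each taken at both stages. At each stage 2 two-colour Agilent arrays set the null RNA against the wild-type RNA of that stage, with the null RNA in Cy5 on replicate 1 and in Cy3 on replicate 2. The labels name neither how Nxn was disrupted, nor how many embryos made an RNA, nor separate extracts for the arrays of a stage, so the dye swap was treated as 1 biological replicate and its SD is that between 2 arrays. In RNA of whole embryos, fewer cells of a type and less RNA per cell cannot be told apart.

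Of the 7 members sought, among 27670 gene names on the array, 6 had a probe, with 9 of the 41174 gene probes. Prdm1, Prdm6, Prdm10 and Prdm16 had 1 probe each, Prdm4 had 2 and Prdm2 had 3. No probe carried the name of Prdm14, which is not analysed here. The Prdm6 probe bears the older name Gm92 and was matched through its RefSeq accession. Probes with an outlier mark were dropped, and a probe needed, at E9.5 or at E11.5, a genotype whose signal exceeded background clearly on both arrays: 8 of the 9 passed. The exception was the Prdm2 probe A_51_P176998, which was well above background in 0 of its 8 measurements. The 2 Nxn probes were lower in the null RNA on all 4 arrays, with a mean log2 ratio of −0.99 at E9.5 and −1.33 at E11.5 for A_52_P57013, and of −0.81 and then −1.16 for A_51_P165870. Both kept a signal well above background in the null RNA, and whether they lie in the disrupted part of the gene is not known here. Across the 24984 kept probes, given as a description, replicates 1 and 2 correlated at E9.5 (r = 0.425) and less at E11.5 (r = 0.241).

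The RefSeq promoter of Prdm16 is shown because this gene carried the widest differences of the family, both between genotypes and between stages. It spans 250 bases before to 50 bases after the RefSeq start, chr4:154636824-154637123 of GRCm38.p6, on the minus strand, and capitals mark the CpG dinucleotides.
Prdm16: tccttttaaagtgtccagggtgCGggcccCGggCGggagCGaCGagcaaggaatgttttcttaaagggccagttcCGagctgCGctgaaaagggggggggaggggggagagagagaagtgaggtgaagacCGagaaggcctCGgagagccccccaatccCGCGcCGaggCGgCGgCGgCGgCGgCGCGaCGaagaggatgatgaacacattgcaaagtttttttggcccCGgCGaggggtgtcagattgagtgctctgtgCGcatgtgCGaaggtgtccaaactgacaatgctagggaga
It holds 24 CpG and 61.0% G or C, against a median of 7 CpG over the 32851 RefSeq promoters of that length, 20.0% of which hold at least as many. Among the other members whose promoter was read, Prdm1 holds 20 CpG, the 2 starts of Prdm4 hold 32 and 40, and the 2 starts of Prdm10 hold 12 and 4. Promoters of Prdm2, Prdm6 and Prdm14 are not reported here. The letters CTTTGA and CTTTGT, the core that TCF/LEF factors of the Wnt pathway recognise, were searched on both strands. Neither occurs in this window of Prdm16 or in those of Prdm1 and Prdm4. CTTTGT occurs in 1 of the 2 Prdm10 windows, the one with 4 CpG. They occur in 16.0% and 18.7% of all promoters.

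Prdm16, a zinc-finger regulator that recruits CtBP co-repressors and C/EBPβ, differed between genotypes at E9.5 by 4.79-fold. The level of its probe (A_51_P514139), as normalized log2 intensity, was 8.01 and 7.92 in wild type at E9.5 and 10.29 and 10.16 in the null at E9.5, on replicates 1 and 2. At E11.5 it was 11.75 and 11.70 in wild type and 11.60 and 11.78 in the null. The 2 genotypes stood well apart at E9.5 and overlapped at E11.5. All 8 measurements were well above background, and the scanned mean signals at E9.5 were 1729 and 797.7 in the null against 151.4 and 293.9 in wild type. The log2 ratio of null over wild type was 2.28 and 2.24 at E9.5, a mean of 2.26 ± 0.02 (SD, n = 2 arrays). At E11.5 it was −0.15 and 0.07, a mean of −0.04 ± 0.16 (SD, n = 2 arrays). At E9.5, 3 of the kept probes (0.012%, Prdm16 itself counted) had a mean ratio of 2.26 or higher. Agilent's own log ratio put the E9.5 mean of Prdm16 at 3.03. Ordered by level, wild type at E9.5 came lowest at 7.96 ± 0.07, then the null at E9.5 at 10.22 ± 0.09, then the null at E11.5 at 11.69 ± 0.12 and wild type at E11.5 at 11.73 ± 0.03 (SD, n = 2 arrays each). The last pair in that order did not differ beyond its spread.

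The distance that Prdm16 covered between stages therefore differed by genotype. In wild-type embryos its level was higher at E11.5 than at E9.5 by 3.77 on the log2 scale, a 13.6-fold difference that 9 kept probes (0.036%), itself counted, equalled or exceeded. In null embryos the same step was 1.47, a 2.76-fold difference reached by 185 kept probes (0.74%). The null embryos at E9.5 lay between the wild-type stages, and wild type at E11.5 was still 2.84-fold above them. No test is attached to these steps, because they contain the E9.5 levels by which the gene was chosen. The wild-type step starts from a dim signal, 151.4 and 293.9 over local backgrounds of 51 and 56 at E9.5. Neither step was recomputed under other processing.

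**Figure D1:**
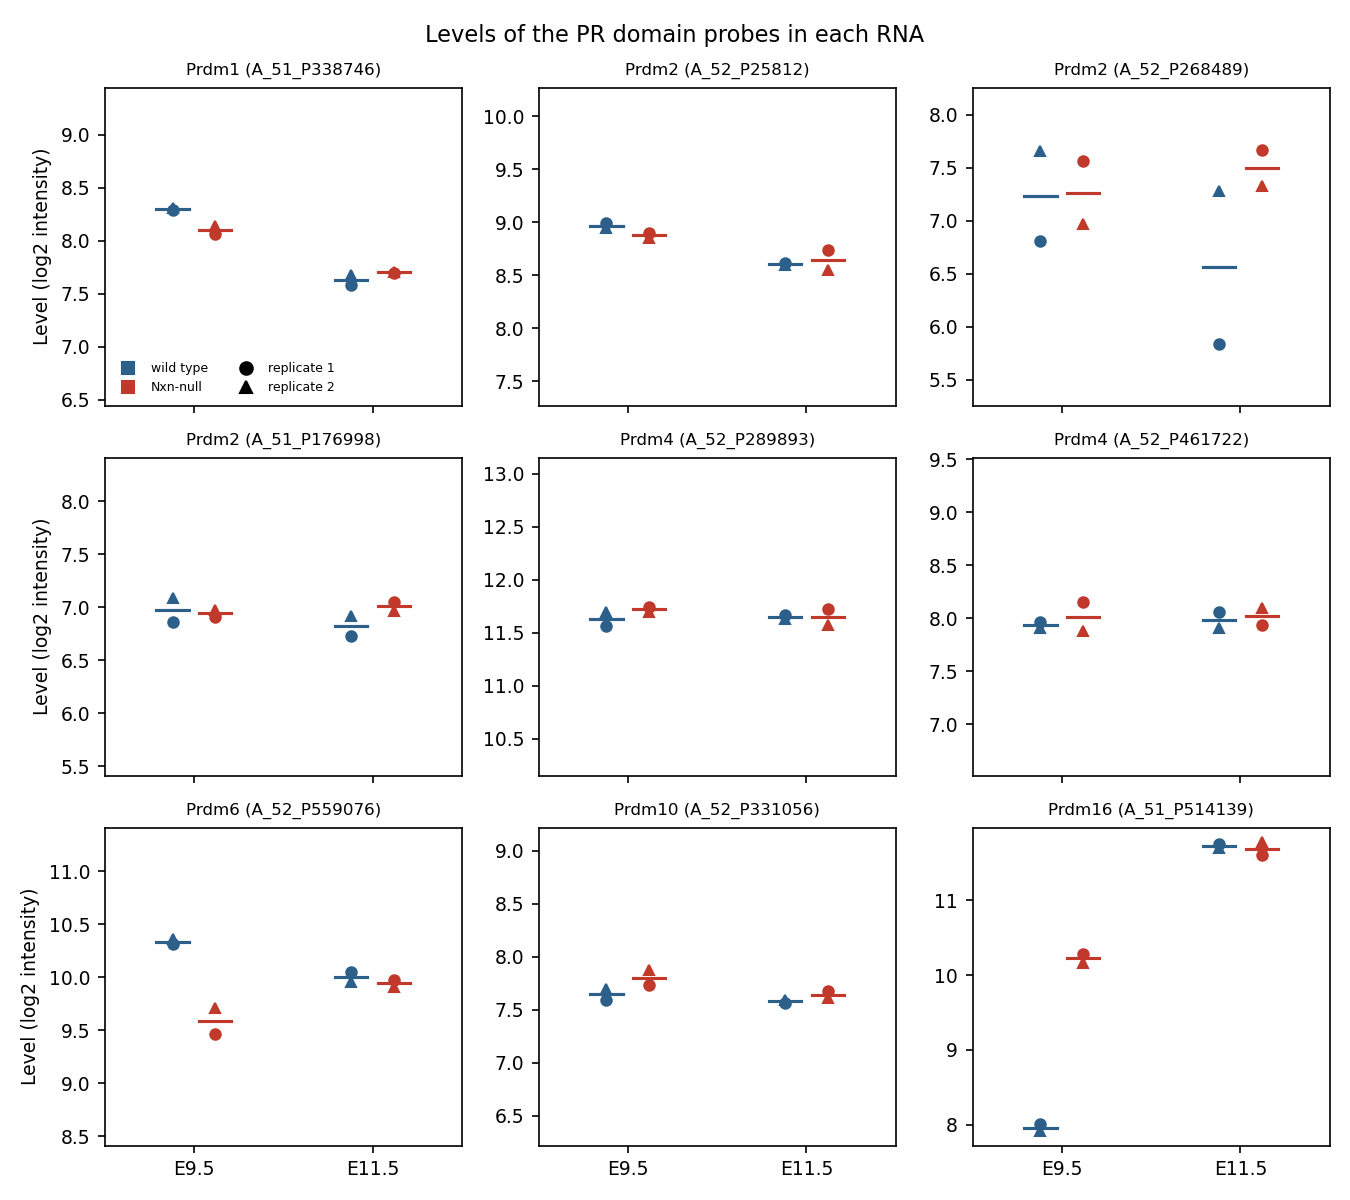
Normalized level (log2 intensity, vertical axis) of each of the 9 member probes at E9.5 and E11.5, with wild type in blue and Nxn-null in red, circles for replicate 1, triangles for replicate 2 and bars for their mean; the axis spans 3 log2 units in every panel but that of Prdm16, and levels are not comparable between probes. Prdm16 lies near 8 in wild type and near 10.2 in the null at E9.5, and higher still in both at E11.5.

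Prdm6, a repressor of contractile genes in vascular smooth muscle, moved the other way at E9.5 and by less. Its level (probe A_52_P559076) at E9.5 was 10.31 and 10.36 in wild type against 9.46 and 9.70 in the null, and at E11.5 it was 10.05 and 9.96 in wild type against 9.97 and 9.91 in the null. Both null measurements at E9.5 lay below all of the other RNAs, and at E11.5 the genotypes overlapped. The log2 ratios were −0.85 and −0.66 at E9.5, a mean of −0.75 ± 0.14 (SD, n = 2 arrays) or 1.68-fold lower in the null, and −0.07 and −0.05 at E11.5. The E11.5 mean of −0.06 turned to 0.06 when arrays were centred on their median without loess. Between stages the genotypes went opposite ways for Prdm6, by −0.33 in wild type and by 0.36 in the null, which left a shared stage difference of 0.01 ± 0.18 (SE, n = 2 genotypes; limma, adjusted p = 0.961).

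Genes that mark the cells in which Prdm6 is known to act were measured on the same arrays. All 7 smooth muscle genes passed the filter. Their summed level at E9.5 ran from 14.05 to 14.05 in wild type and from 13.39 to 13.40 in the null, on the log2 scale, and at E11.5 from 13.95 to 13.96 and from 14.04 to 14.07. Cnn1, a calponin of the contractile apparatus, had a mean log2 ratio of −1.17 at E9.5 and then 0.10, and Acta2, smooth muscle actin, of −0.75 and then 0.07. Myocd, the coactivator that turns contractile genes on, had 0.37 and 0.75. Of the 7 genes 3 were lower and 2 higher in the null on both E9.5 arrays, where 26.5% and 25.6% of all kept probes were. At E11.5, 6 of the 7 were higher on both arrays and 0 lower, against 22.0% and 22.5% of all kept probes. Acta2 is also expressed in the early heart, whose 7 markers were all lower in the null on both E9.5 arrays, with a median log2 ratio of −1.58. The part of these cells in the Prdm6 ratio was not tested.

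Prdm1 (Blimp1), a repressor needed for primordial germ cells and for several embryonic tissues, showed small ratios of opposite sign at the 2 stages. Its level (probe A_51_P338746) was 8.29 and 8.31 in wild type and 8.07 and 8.14 in the null at E9.5, and 7.58 and 7.67 in wild type and 7.69 and 7.71 in the null at E11.5. The genotypes did not overlap at either stage, with the null lower at E9.5 and higher at E11.5, while the stages lay further apart than the genotypes. The mean log2 ratio was −0.20 ± 0.03, then 0.08 ± 0.06 (SD, n = 2 arrays each). Prdm1 fell between E9.5 and E11.5 by 0.54 on the log2 scale (SE 0.09, n = 2 genotypes; limma, adjusted p = 0.0170), which makes E9.5 1.45-fold the higher. Of the germ cell list 6 of 9 genes passed the filter, with a median log2 ratio of 0.03 at E9.5 and of −0.00 at the later stage, and with a summed level from 12.70 to 12.75 in wild type and from 12.78 to 12.79 in the null at E9.5. Of the 6 genes 4 were higher and 2 lower in the null on both E9.5 arrays, where 25.6% and 26.5% of all kept probes were. Sox2, among the 6, is also on the neural list used below, so the sum is not particular to germ cells. Ddx4, the germ cell RNA helicase, had a mean log2 ratio of −0.29 at E9.5 and was well above background in 4 of 8 measurements over both stages.

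Prdm2 (RIZ), a histone H3 methyltransferase, had 3 probes, of which A_51_P176998 was not well above background in any measurement. The other 2 did not give the same ratios. Probe A_52_P25812 gave levels of 8.99 and 8.95 in wild type and 8.90 and 8.86 in the null at E9.5, and of 8.61 and 8.59 in wild type and 8.74 and 8.55 in the null at E11.5. Its log2 ratios were −0.09 on both E9.5 arrays and 0.13 and −0.04 at E11.5. By this probe Prdm2 fell from E9.5 to E11.5 by 0.30 on the log2 scale (SE 0.07, n = 2 genotypes; limma, adjusted p = 0.0332). That call did not hold without E9.5 replicate 1 (adjusted p = 0.108) or without E11.5 replicate 2 (adjusted p = 0.141).

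Probe A_52_P268489 of Prdm2 gave log2 ratios of 0.75 and −0.69 at E9.5, then of 1.83 and 0.04 at E11.5. The sign followed the dye at E9.5, since the null was in Cy5 on the first array of each stage and in Cy3 on the second. The median local background in the Cy3 channel of this spot was 203.5 and 152.5 on the E9.5 arrays, 297.5 on E11.5 replicate 1 and 57 on E11.5 replicate 2, while in Cy5 it lay between 57 and 61. Agilent's log ratio, which corrects the background in another way, took the opposite sign on the first 3 of these arrays, at −1.75, 1.17 and −1.77, and was 0.15 on the last. Its stage difference of −0.22 ± 0.23 (SE, n = 2 genotypes) did not pass the test (limma, adjusted p = 0.485), and its ratios carry no direction for Prdm2.

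Prdm4 and Prdm10 are broadly expressed zinc-finger members, and Prdm4 is known to recruit the arginine methyltransferase Prmt5 in neural stem cells. For Prdm4, probe A_52_P289893 gave levels of 11.56 and 11.69 in wild type and 11.74 and 11.70 in the null at E9.5, and of 11.66 and 11.63 against 11.72 and 11.57 at E11.5. The null lay slightly above wild type on both E9.5 arrays, the genotypes overlapped at E11.5, and the log2 ratios were 0.19 and 0.01 at E9.5, then 0.06 and −0.05 at E11.5. The second Prdm4 probe, A_52_P461722, had ratios of 0.19, −0.03, −0.12 and 0.19 on the 4 arrays. The stage differences of −0.03 ± 0.06 and 0.02 ± 0.06 (SE, n = 2 genotypes) did not pass the test (limma, adjusted p = 0.763 and 0.759). Prdm10 (probe A_52_P331056) had levels of 7.59 and 7.69 in wild type and 7.73 and 7.87 in the null at E9.5, and of 7.56 and 7.59 against 7.68 and 7.61 at E11.5. Its log2 ratios were 0.14, 0.17, 0.11 and 0.01 on the 4 arrays, all above 0, although Agilent's log ratio was −0.07 on the second. Its stage difference was −0.11 ± 0.06 (SE, n = 2 genotypes; limma, adjusted p = 0.217).

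**Figure D2:**
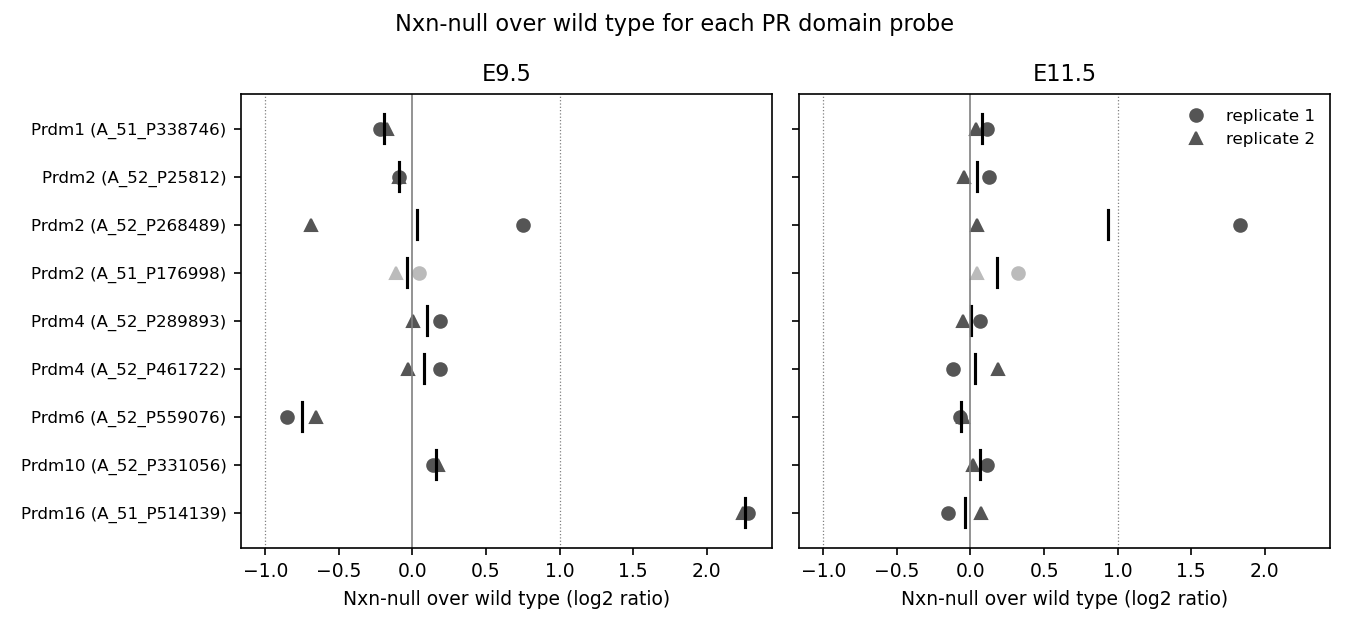
Log2 ratio of Nxn-null over wild type (horizontal axis) for each member probe at E9.5 and E11.5, with circles for replicate 1, triangles for replicate 2, a bar for the mean, pale symbols for the probe that failed the filter and dotted lines at 2-fold. Prdm16 lies at 2.26 at E9.5, Prdm6 at −0.75, and the Prdm2 probe A_52_P268489 splits by dye.

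Counted over the 8 kept probes at E9.5, 3 were higher and 3 lower in the null on both arrays, and 1 was at least 2-fold apart. Over all kept probes 25.6% were higher on both arrays, 26.5% lower on both, 0.0801% at least 2-fold higher and 0.616% at least 2-fold lower, and since the rule used this contrast nothing is read from the counts. At E11.5, 3 were higher and 1 lower on both arrays against 22.0% and 22.5% of all kept probes, and 0 were at least 2-fold apart against 0.052% higher and 0.156% lower. The 3 include the Prdm2 probe A_52_P268489, whose ratios carry no direction, and which also enters the medians and stage counts below. The median log2 ratio of the 8 was 0.05 and then 0.04, beside 0.00 and 0.01 over all kept probes. Between stages, which the choice of members did not rest on outside Prdm16, 0 of the other 7 kept probes rose and 2 fell, where 19.5% and 22.9% of all kept probes did. Their median stage difference was −0.11, beside −0.04 over all kept probes.

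**Figure D3:**
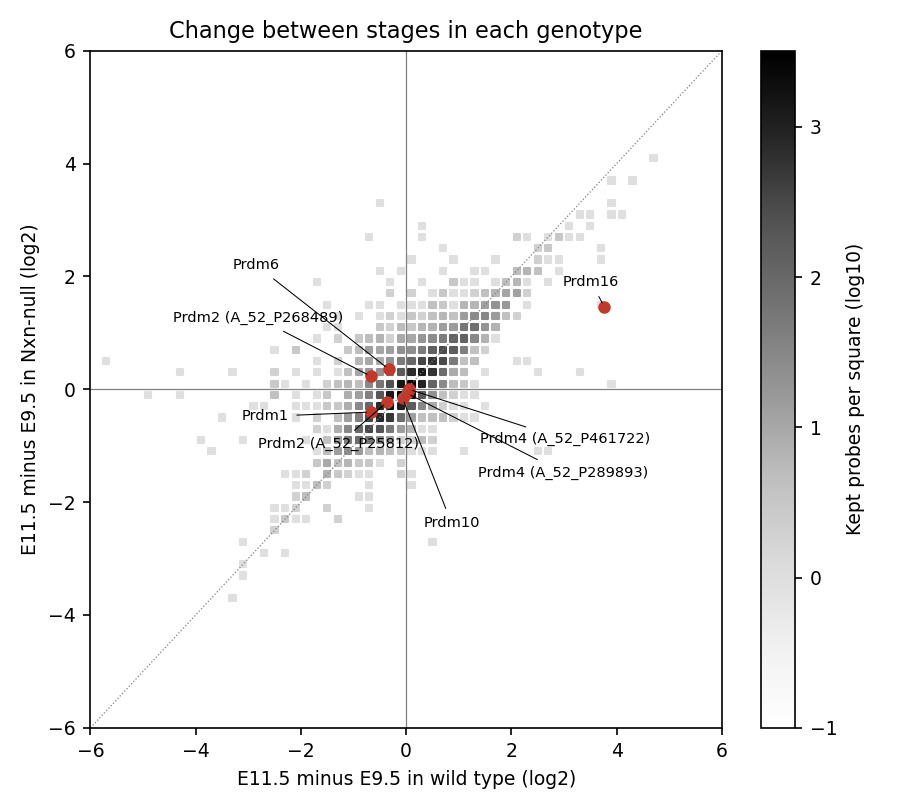
Difference between E11.5 and E9.5 (log2) in wild type on the horizontal axis and in Nxn-null on the vertical axis, with grey squares for the number of kept probes, red points for the 8 kept member probes and a dotted line where the genotypes are equal. Prdm16 lies at 3.77 and 1.47, below that line, and Prdm6 at −0.33 and 0.36, above it.

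Further PR domain genes were read on the same arrays. Prdm8, a regulator of neuronal and retinal development, had mean log2 ratios of −0.36 at the earlier and −0.07 at the later stage by probe A_51_P142972, and fell from E9.5 to E11.5 by 0.47 on the log2 scale (SE 0.09, n = 2 genotypes; limma, adjusted p = 0.0245). Prdm11, well above background in 6 of 8 measurements, had −0.11 and −0.13 and rose by 0.25 (SE 0.06, n = 2 genotypes, adjusted p = 0.0367 by limma). Prdm15 had −0.09 and −0.03 by probe A_51_P476900, with a stage difference of 0.19 that did not pass (limma, adjusted p = 0.0739). The sign of its ratios followed the dye, at 0.17 and −0.35 at E9.5, then 0.16 and −0.22 at E11.5. Mecom, the relative closest to Prdm16 in the family and known from blood stem cells, was read by probes named Evi1 and Mds1. Its Evi1 probe A_52_P418901 had 0.22 and −0.02 and a stage difference of −0.01 (limma, adjusted p = 0.946). Another Evi1 probe was well above background in 2 of 8 measurements, and the Mds1 probe in 0 of 8. The probe of Prdm9, the meiotic hotspot gene, was well above background in 0 of 8 measurements, and no probe was found for Prdm12 or Prdm13.

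Of 21 genes for proteins through which PR domain factors act, 20 passed the filter. At E9.5, 6 of them were higher and 4 lower in the null on both arrays, against 25.6% and 26.5% of all kept probes, with a median log2 ratio of 0.10. At E11.5, 5 were higher and 2 lower, against 22.0% and 22.5%, with a median of −0.01. Med1, the Mediator subunit that Prdm16 binds, had log2 ratios of 0.49 and 0.63 at E9.5, then of 1.37 and 1.36 at E11.5. Tle1, a Groucho co-repressor, had 0.11 and 0.29 at E9.5, and at E11.5 a mean of 1.07 ± 0.10 (SD, n = 2 arrays). Both genes were thus higher in the null on every array and by over 2-fold at E11.5. They were named for the largest ratios of the list. Of all kept probes, 0.052% were at least 2-fold higher at E11.5. Whether the ratios of Med1 and Tle1 bear on Prdm16 was not tested. Cebpb, the partner of Prdm16 in brown fat, had −0.40 and −0.93 at E9.5, then 0.10 and −0.26 at E11.5. Between stages 2 of the 20 rose and 5 fell, against 19.5% and 22.9% of all kept probes. Of 8 genes of brown fat and heat production, the best known programme under Prdm16, 6 passed the filter, with a median log2 ratio of 0.17 at the earlier and 0.05 at the later stage and no member 2-fold apart at either stage. At E9.5, 3 of these 6 were higher in the null on both arrays and 1 was lower, which was Ppargc1a, a coactivator of mitochondrial genes, at −0.39.

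Markers of other tissues also differed between the E9.5 RNAs, at which stage 25.6% of all kept probes were higher and 26.5% lower in the null on both arrays. All 10 genes of yolk sac visceral endoderm passed, 9 were lower in the null on both arrays, and their summed log2 level ran from 17.24 to 17.26 in wild type and from 13.84 to 14.15 in the null. For Cubn, the endocytic receptor cubilin of that tissue, the mean log2 ratio was −4.25 at the earlier stage and −0.09 at the later. Trophoblast genes summed to between 11.79 and 11.88 in wild type and between 12.01 and 12.13 in the null, over the 7 of 10 that passed. Of these 7 genes, 4 were higher and 2 lower in the null on both arrays, with a median of 0.15. Decidual genes, of which all 5 passed, summed to between 12.46 and 12.89 and between 11.32 and 11.34. The decidual genes went different ways: Igfbp1 lay at −3.50 and Prl8a2 was higher in the null, and the list median was −0.05. Of 8 neural genes 6 were higher in the null on both E9.5 arrays, with a median of 0.39 and with Stmn2, a tubulin-binding protein of neurons, at 0.56. Their sum ran from 14.74 to 14.76 in wild type and from 15.06 to 15.10 in the null. Of 8 genes of cartilage and face mesenchyme 7 were higher on both, with a median of 0.27 and with Msx2 at 0.47, and their sum ran from 14.36 to 14.43 and from 14.60 to 14.66. Genes of primitive red cells, all 6 of them kept, were lower in the null at both stages, with medians of −0.76 and −1.14, and Klf1, the erythroid activator, at −0.93 and −1.49. The highest list median at E9.5 was the 0.39 of the neural genes. A list median does not bound its single genes: Prl3d2 had 1.41 in the trophoblast list, whose median was 0.15. The part of these tissues in the E9.5 ratio of Prdm16 was not tested.

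**Figure D4:**
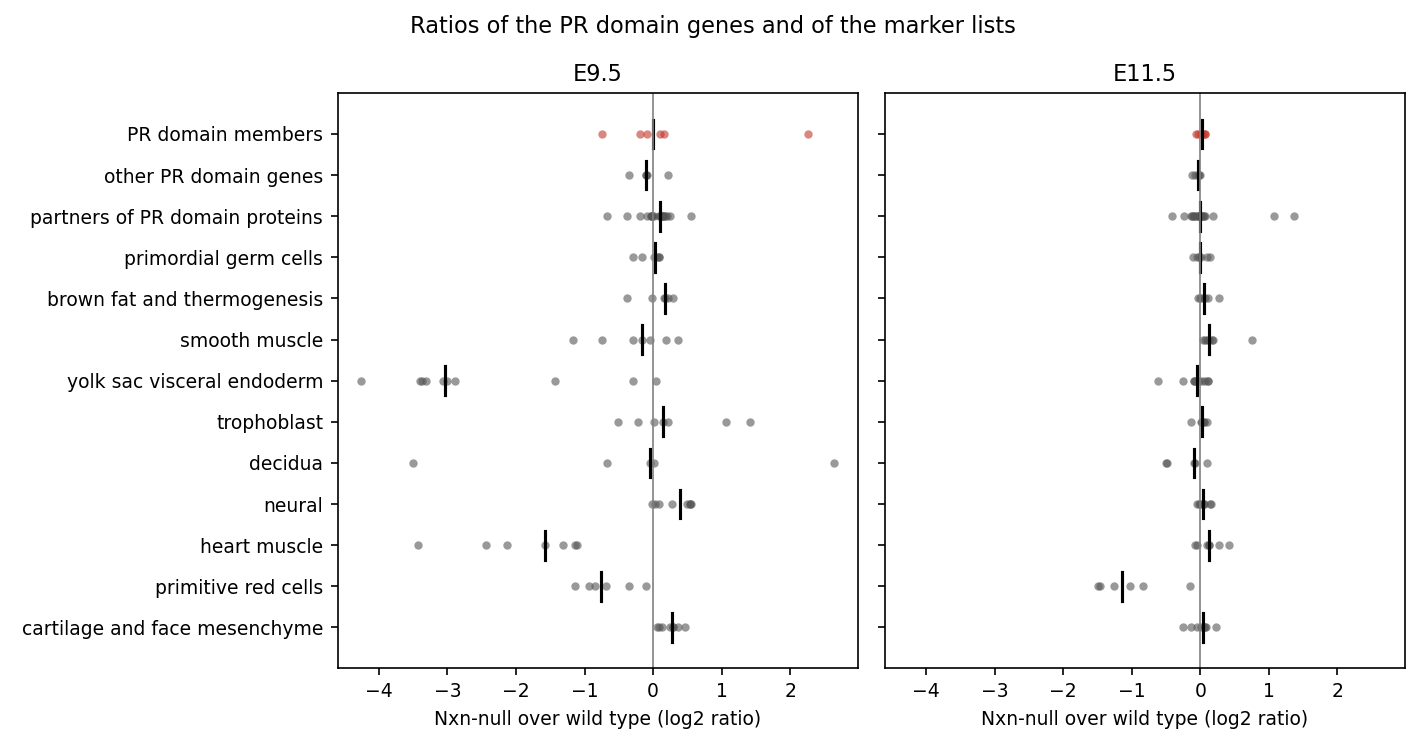
Log2 ratio of Nxn-null over wild type (horizontal axis) at E9.5 and E11.5 for the kept genes of each list, 1 point a gene at its brightest kept probe, with a bar at the list's median and the PR domain members in red. At E9.5 the yolk sac list lies at a median of −3.04 and the heart list at −1.58, and Prdm16 stands alone to the right among the members.

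The genes whose 4 ratios lay nearest to those of Prdm16, by Euclidean distance on the log2 scale, were H4c9 (distance 0.287), Prl8a2 (0.951), Prl3d2 (1.23), Wdfy1 (1.25) and Zfp874a (1.48). H4c9, a histone H4 gene, had log2 ratios of 2.35 and 2.37 at E9.5, then 0.09 and 0.14 at E11.5, and its levels rank the 4 RNAs differently, with the null at E9.5 the highest, at 12.70 and 12.75. Prl8a2 and Prl3d2, prolactin-family genes of decidua and trophoblast, were well above background in 3 and 4 of 8 measurements. The E9.5 wild-type RNA was not well above background for Prl8a2 on either array, so its null level there was at least 5.59-fold higher, and Prl3d2 had a mean log2 ratio of 1.41. A bound of this kind sets the mean of the brighter RNA against the higher, on each array, of the dim probe and the dimmest probe well above background. Wdfy1 had 1.43 at E9.5 and then −0.06. Zfp874a was not well above background in wild type at E9.5 either, and was at least 2.55-fold higher in the null. The distances of Prl8a2, Prl3d2 and Zfp874a thus rest in part on signals near background. The genes beside Prdm16 on chromosome 4, 5 on each side in RefSeq order, were looked up after its value was known. Their kept probes had mean log2 ratios at E9.5 between −0.33 and 0.29. A part of the surrounding region in the Prdm16 ratio was not tested.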

How the data were processed

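Scanner files of 4 two-colour Agilent arrays were used, all from 1 slide and 1 scan, so slide is no batch. Per the file headers, Agilent Feature Extraction 9.1.3.1 gave the deposited intensity of each spot (mean signal and median local background, not normalized) and a log10 ratio of red over green; version 9.5.3.1 stands in the submitters' processing notes. The deposited series table held log10 ratios of Agilent's processed signals, null over wild type after turning the sign on dye-swapped arrays (equal within 1e-04 for at least 99.995% of 40929 single-spot probes on each array, column medians −0.0347 to 0.0408 and so not centred). Probe sequences, and the build behind the array's annotation, are not given in the sources used here; promoter positions are those of RefSeq's GRCm38.p6 table.

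Background was corrected with normexp (offset 50, which pulls ratios of dim spots toward 0 on the log2 scale), arrays were normalized by loess with control spots at weight 0, and single-channel log2 levels were scaled by Aquantile (limma 3.58.1, R 4.3.3). Spots of a probe were averaged, and 24984 of 41174 gene probes were kept (302 had outlier marks). Between 48.2% and 70.3% of probes were well above background in a channel, and the number of arrays limits the precision. Array names are those of the design; kept probes were renamed through RefSeq by accession (16889), current symbol (3511) or older symbol (1665), and 2919 kept the file's name. Where a list names a gene, its brightest kept probe stands for it.

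The null over wild-type ratio has no test. The stage difference (E11.5 minus E9.5 per genotype) was tested with limma over all kept probes with the 2 genotypes as replicates (1 residual and 2.98 prior degrees of freedom), Benjamini-Hochberg adjusted at 0.05. P-values measure only the spread between these RNAs. Named genes were the members, Nxn, other PR domain genes (not all are reported here), the 5 nearest to Prdm16, and from each list those with the largest mean ratio at a stage, at most 3. Members and lists were chosen with earlier results of these data known. Alternatives were Agilent's log ratio, an offset of 10, median centring, quantile scaling, other filters, a trended robust fit, leaving out each array, and dye orientation as a block. Figures were drawn with matplotlib 3.10.9.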

Additional observations from a re-analysis of the deposited data

Results flagged for a closer look

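Of the genes named, 5 had ratios of null over wild type on one side of 0 on both E9.5 arrays and on the other side on both E11.5 arrays; in none of them was the difference between stages tested. For Prdm1 the mean log2 ratio was higher at E11.5 than at E9.5 by 0.27. For Cnn1 it was higher by 1.28 and for Acta2 by 0.82. For Myl2, the ventricular myosin light chain, it was higher by 3.84. For Prl8a2 it was lower at E11.5, with a difference of −3.14, a difference of measured ratios that rests in part on signals near background, since the gene was well above background in 3 of 8 measurements.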

How the results depend on the processing

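Prdm16 stayed higher in the null at E9.5 under each alternative run: its log2 ratio was 3.03 by Agilent's log ratio, 2.49 with an offset of 10, 2.33 with median centring, and 2.24 to 2.28 when either array was left out. At E11.5 it lay between −0.15 and 0.07 when either array was left out, and was 0.11 with median centring. Probes at least 2-fold higher at E9.5 numbered 20, against 194 by Agilent's log ratio, 44 with an offset of 10 and 25 to 69 with 1 array, the 69 being without E9.5 replicate 2. Probes at least 2-fold lower numbered 154, against 535, 252 and 140 to 285, the 285 being without E9.5 replicate 1. At E11.5 the 13 higher became 100 by Agilent's log ratio, 86 with an offset of 10, 20 with median centring, 8 with both genotypes well above background and 9 to 115 with 1 array, the 115 being without E11.5 replicate 2. The 39 lower became 137 by Agilent's log ratio and 37 to 59 with 1 array. The cause was not tested. By stage, 4868 probes were higher and 5725 lower, against 3380 to 4840 and 3462 to 5514 with 1 array left out, with 3462 lower in the absence of E9.5 replicate 1 and 3570 in that of E11.5 replicate 2. The labels carry no replicate numbers. With dye orientation as a block the counts were 6409 and 7946, but this fit took the 2 arrays of an RNA as separate measurements. Its adjusted p-values for Prdm1 and Prdm2 (0.00297 and 0.00753 by limma) therefore do not measure the spread between RNAs. Prdm1 passed under every other alternative of the stage fit (adjusted p from 0.00841 to 0.0209 by limma). The stage difference of Prdm2 by A_52_P25812 was −0.28 without E9.5 replicate 1 and fell short of the threshold there, as it did at −0.25 with E11.5 replicate 2 left out. Stage differences that had not passed changed sign on leaving out 1 array: Prdm2 by A_52_P268489 ranged from −0.495 to 0.052, Prdm4 by A_52_P289893 from −0.0728 to 0.0212 and by A_52_P461722 from −0.0581 to 0.108, and Prdm6 from −0.0611 to 0.0868. In all, 162 of the 199 alternative values counted as unchanged. For a ratio this meant a shift smaller than the SD between the 2 arrays, and for a count a similar size. For a stage difference it meant the same sign and side of the threshold. A small ratio could change sign and still count, and leaving out 1 of 2 arrays always counted for a ratio. Brightness sets a limit: dim probes such as Prdm10 and Prdm1 lie near background in a channel or more, and each RNA was read on 2 arrays. The wild-type signal of Prdm16 at E9.5 was dim too, and the size of the Prdm16 ratio there moved with the offset.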
